A study of Arabidopsis thaliana with 3 samples.

Results

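Arabidopsis seedlings overexpressing WRKY6 were set directly against seedlings carrying the wrky6-1 knockout, the largest contrast in WRKY6 dose that the study offers. The comparison used 2 of the 3 arrays in the series, 1 for each genotype, and the wild-type array entered no ratio. Members were chosen by signal alone: control probe sets were dropped, signals under 45.5 were raised to 45.5, and a probe set was kept where the higher of its 2 signals reached 174.6. This left 12000 of 22746 Arabidopsis probe sets, called measured here, and 6198 genes with a probe set assigned to that gene alone. With 1 array per genotype there is no replicate error and no test, so every ratio describes these arrays and not the genotypes in general. A gene was counted as higher or lower where its signals differed at least 2-fold.

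The overexpressor was labelled 35S:WRKY6-9, a line in which the constitutive 35S promoter drives WRKY6. The mutant was labelled wrky6-1 knockout. Ecotype Columbia is given for the wild type, and no ecotype was given for the other genotypes. All seedlings were harvested at 7 days, after 2 days of cold treatment of the seeds and growth on MS agar at 22 °C in constant light (40 µmol per m2 per s). Whole seedlings were used, so fewer cells of a type and less RNA per cell cannot be told apart in any result. For each genotype 8 µg of RNA was labelled and 20 µg of cRNA was fragmented, and nothing states how many seedlings were pooled.

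WRKY6 is a transcription factor of the plant-specific WRKY family, whose members bind W-box elements in promoters and can raise or lower transcription. It is known for roles in leaf senescence, in pathogen responses and in phosphate transport. A direct comparison of excess with loss of the factor shows which transcripts differ between the extremes, without saying which of the lines departs from the wild type.

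WRKY6 itself had a signal of 9245 on the 35S:WRKY6 array and of 12.14 on the wrky6-1 array. The knockout signal lay under the floor of 45.5, so WRKY6 was at least 203-fold higher in the overexpressor, the order that the labels give. On the wrky6-1 array 29.9% of probe sets were under the floor. With no wild-type signal used, a low WRKY6 signal there does not by itself check the knockout label. The gene next to WRKY6 in the TAIR10.1 order, AT1G62290, went the other way, with 200.5 in 35S:WRKY6 against 1260 in wrky6-1, a log2 ratio of -2.65. Of the 10 genes on each side of WRKY6, 7 had a probe set, 3 were measured and AT1G62290 was the 1 that differed 2-fold. This neighbour was singled out after its value was seen.

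Across the arrays, the overexpressor was brighter at 543 measured probe sets (4.53%) and dimmer at 558 (4.65%). Among genes the counts were 264 higher (4.26%) and 269 lower (4.34%), and these shares are the background for every gene group below. The median log2 ratio was -0.009 over probe sets and 0.003 over genes, and 70.6% of genes lay within 0.5 of 0. At 4-fold 36 genes were higher and 53 lower, and at 8-fold 6 were higher and 13 lower. Only 138 of the higher and 122 of the lower genes had both signals above the filter of 174.6, and the rest were measured through the array on which they were bright. A gene under the filter on one array entered only if it was brighter on the other, so the filter selects for difference among dim genes. Just inside the 2-fold threshold, with a log2 ratio between 1 and 1.1 in size, lay 110 genes, and just outside it, between 0.9 and 1, lay 136.

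**Figure D1:**
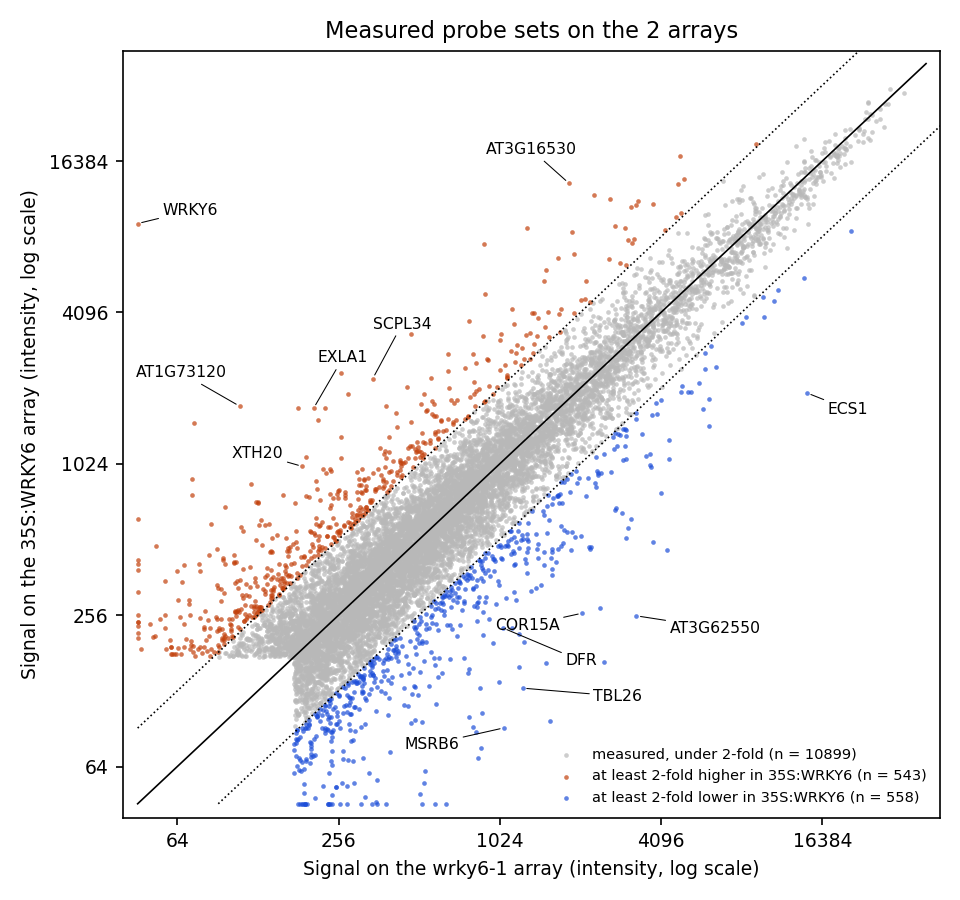
Signals of the 12000 measured probe sets on the wrky6-1 array (horizontal) and the 35S:WRKY6 array (vertical), both as intensities on log scales, with signals under 45.5 drawn at 45.5. The solid line marks equal signal and the dotted lines 2-fold differences. Probe sets past 2-fold (543 higher, 558 lower) lie on both sides in similar number, and WRKY6 stands apart at the upper left.

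The arrays were of similar overall brightness, with trimmed means of 499.8 and 500.1 and median signals of 169.4 and 172.5 for 35S:WRKY6 and wrky6-1, and their log2 signals correlated with r = 0.97 across probe sets, which are not independent. Genes measured by more than 1 probe set, 46 in number, gave log2 ratios with an SD of 0.27 between probe sets, a technical spread that holds no biological variation. The share past 2-fold was 17.5% among the 2400 dimmest measured probe sets and 5.42% among the 2400 brightest. The 9 newer probe sets for bacterial and phage hybridisation spike-ins had a median ratio of 1.29 for 35S:WRKY6 over wrky6-1, with 8 above 1, and the 12 newer Bacillus ones had 0.953. The 9 older hybridisation probe sets are listed at 0 on the 35S:WRKY6 array and have signal on the wrky6-1 array. Nuclear photosynthesis genes marked leaf tissue on both arrays, and PYK10, a beta-glucosidase abundant in roots, marked root tissue at 17509 and 18203. The only flower or pollen marker with a probe set was not measured.

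**Figure D2:**
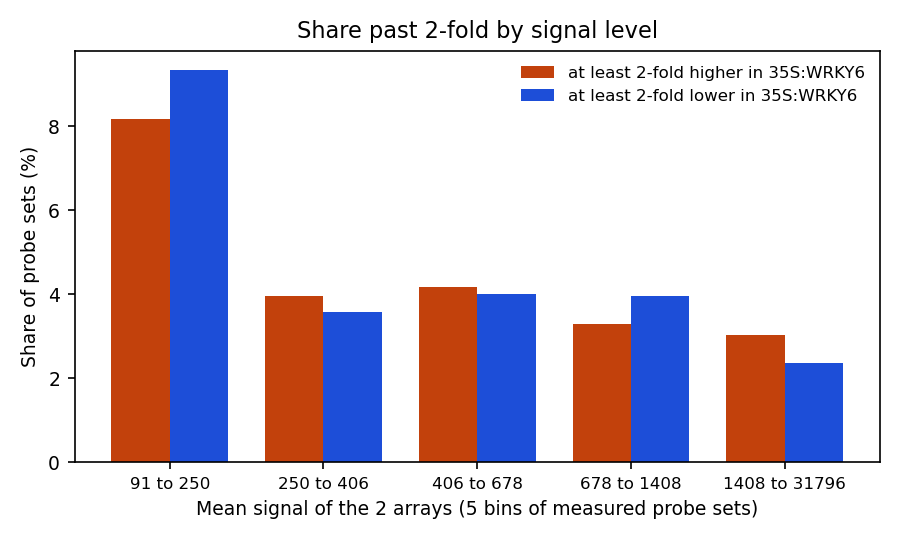
Share of measured probe sets at least 2-fold higher (orange) or lower (blue) in 35S:WRKY6 than in wrky6-1, in percent, in 5 bins of mean signal with 2400 probe sets each. The dimmest bin held 196 higher and 224 lower probe sets, and the brightest held 73 and 57.

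Most of the genes at the top of the range are known here by locus code only. Genes with a symbol made up 971 of the measured genes, with 4.63% higher and 5.87% lower, and genes with a locus code alone made up 5227, with 4.19% and 4.06%. Among genes measured above the floor on both arrays, AT1G73120 was highest in the overexpressor, with 1734 against 109.5, a log2 ratio of 3.98. AT1G15010 followed at 890 against 72.8 (3.61), and AT5G01740 at 1701 against 180.5 (3.24). In wrky6-1 AT1G73120 and AT1G15010 were under the filter of 174.6 and AT5G01740 was just above it. All 3 were of moderate brightness in 35S:WRKY6. AT3G16530 was bright on both arrays, at 13379 in 35S:WRKY6 and 1855 in wrky6-1 (2.85), and AT4G21870 had 4840 against 900.1 (2.43). The others of the 15 highest known by locus code, namely AT2G27080, AT2G23680, AT5G26200, AT3G25790, AT5G18840 and AT5G10695, had log2 ratios from 2.81 down to 2.29. AT3G23550, at 619.2 in the overexpressor and under the floor in the knockout, was at least 13.6-fold higher. Also under the floor in the knockout were AT1G76960, AT5G25440, AT4G22050 and AT1G70880, at least 5.62-fold, 5.28-fold, 5.09-fold and 4.56-fold higher.

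Several genes lower in the overexpressor were bright in the knockout. AT3G28270 had 166.1 in 35S:WRKY6 against 2501 in wrky6-1, a log2 ratio of -3.91. AT3G62550 had 254.4 against 3314 (-3.70), and AT3G28220 had 464.1 against 4320 (-3.22). All 3 were among the well-expressed genes of the knockout array and were near or under 500 in the overexpressor. AT3G44450 at -3.25, AT1G52000 at -3.21, AT3G26960 at -3.14, AT5G47330 at -3.07, AT1G23205 at -2.96 and AT2G15020 at -2.74 were also among the 15 lowest. Below the floor in 35S:WRKY6, AT5G55450 was at least 14.1-fold lower (642.3 in wrky6-1), AT1G67860 at least 11.5-fold lower (523.1) and AT1G06830 at least 8.45-fold lower (384.6). AT3G17640, AT2G22590, AT1G65500 and AT1G14580, which were also under the floor there, were at least 5.67-fold, 5.21-fold, 5.17-fold and 5.14-fold lower.

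Named genes at the low end came from different functions. ECS1, a gene linked to bacterial disease resistance in Arabidopsis, had the brightest signal of them, at 1959 in 35S:WRKY6 and 14374 in wrky6-1 (-2.88). MSRB6, a methionine sulfoxide reductase that repairs oxidised proteins, had 91.21 against 1063 (-3.54). TBL26 belongs to the TRICHOME BIREFRINGENCE-LIKE family, whose members acetylate wall polysaccharides, and had 131.2 against 1246 (-3.25). At the high end stood SCPL34, a serine carboxypeptidase-like protein, with 2233 against 343.4 (2.70). In their own families TBL26 and SCPL34 were the exceptions: 1 of 12 measured TBL genes was lower with none higher (family median 0.08), and 1 of 13 measured SCPL genes was higher with none lower (median -0.16).

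**Figure D3:**
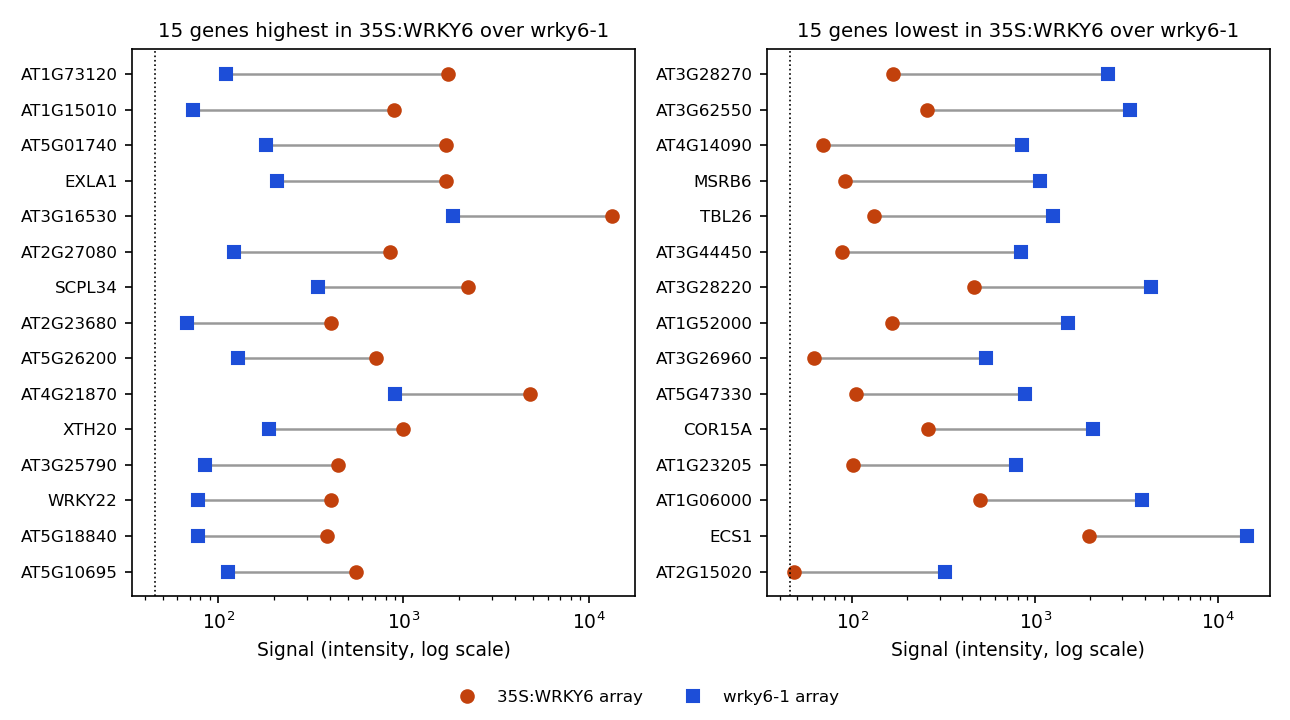
Signals (intensity, log scale) on the 35S:WRKY6 array (orange circles) and the wrky6-1 array (blue squares) for the 15 genes with the highest and the 15 with the lowest ratios among those above the floor on both arrays. The dotted line is the floor of 45.5. The grey lines join the signals of a gene, and the longest belong to AT1G73120 (1734 and 109.5) and AT3G28270 (166.1 and 2501).

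The flavonoid and anthocyanin genes went one way without exception. These enzymes build flavonols and the purple anthocyanin pigments, and then attach sugars and acyl groups to them. Probe sets assigned to a single gene covered 7 of the 28 listed genes. All 7 passed the filter and were lower in 35S:WRKY6, against 4.34% of all genes. Their median log2 ratio was -2.72. In 3 of the 7 the filter was passed on the wrky6-1 array alone, and in 4 both signals were above it.

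Among the members, DFR, the reductase that commits dihydroflavonols to anthocyanin, had 227.6 in 35S:WRKY6 and 1053 in wrky6-1 (-2.21). The glycosyltransferases UGT78D1 and UGT78D2, which attach rhamnose and glucose to flavonoids, had 416.5 against 1657 (-1.99) and 530.1 against 2054 (-1.95). UF3GT, which adds xylose to the anthocyanin sugar, had 131.6 against 864.3 (-2.72). The malonyltransferase AT5MAT was under the floor in the overexpressor and 340.2 in the knockout, at least 7.48-fold lower. The listed loci AT4G14090 and AT1G06000 had log2 ratios of -3.61 and -2.93, from 69.13 against 846.3 and 501.8 against 3835. Every member was thus dimmer in the overexpressor by 3.87-fold or more. CHIL, a chalcone isomerase-like protein of the same pathway picked out after its value was seen, had 369.1 against 1603 (-2.12).

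Glycosyltransferases found by name also leaned to lower signal in 35S:WRKY6. UDP-glycosyltransferases move sugars onto hormones, pigments and other small molecules. Of 29 measured, 2 were higher (6.9%, against 4.26% of all genes) and 7 lower (24.1%, against 4.34%), with a median of -0.41. UF3GT, UGT78D1 and UGT78D2 from the flavonoid list are 3 of the 7. Members that the annotation used does not name as such are outside this count. The other lower members were UGT73B5 at -1.61, UGT73B1 at -1.38, UGT74D1 at -1.35 and UGT88A1 at -1.23, all picked out after their values were seen. UGT72E1, which glucosylates lignin precursors, was the highest at 1619 against 573.6 (1.5), and UGT71C2 had 182.7 against 90.51 (1.01). UF3GT, UGT73B5 and UGT73B1 passed the filter on the wrky6-1 array alone, and UGT71C2 on the 35S:WRKY6 array alone. The median of those found by name stands beside one of 0.003 over all genes.

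Genes that loosen and remodel the cell wall were past 2-fold in both directions, with more higher than lower. Expansins loosen walls without cutting them, and xyloglucan endotransglucosylases (XTH) cut and rejoin xyloglucan chains. Of 18 measured, 7 were higher (38.9%, against 4.26% of all genes) and 3 lower (16.7%, against 4.34%), and the median was 0.39. EXLA1, an expansin-like gene, had 1702 in 35S:WRKY6 and 206.5 in wrky6-1 (3.04). XTH20 had 999.9 against 187.5 (2.41). EXPA8 at 1.64, XTH19 at 1.24, EXPA7 at 1.1, EXLA2 at 1.04 and XTH18 at 1.02 made up the rest, of which EXPA8, XTH19, EXLA2 and XTH18 lie outside the naming rule.

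The lower wall genes spanned the same kinds of protein. EXPA16 had 156.5 against 786.6 (-2.33), XTH32 had 470.2 against 2221 (-2.24), and EXLB1 had 152.1 against 515.7 (-1.76). The class therefore moved in both directions, and single members differ by more than the class median. EXPA7 and EXLA2 passed the filter on the 35S:WRKY6 array alone, and EXPA16 and EXLB1 on the wrky6-1 array alone. EXPA7 was not counted with 50 added in place of the floor. Nor was it with a stricter filter (on both arrays, on the mean signal or at the 70th percentile). XTH18 and XTH19 are neighbouring genes and close relatives, as are several ATG8 and UGT genes, and cross-hybridisation between relatives was not tested. EXPA7 and EXPA18 are also root hair markers. The root list had 3 measured members, EXPA7 (1.1), EXPA18 (0.65) and PYK10 (-0.06), with summed signals of 18057 in 35S:WRKY6 and 18511 in wrky6-1, and its part in the wall result was not tested.

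**Figure D4:**
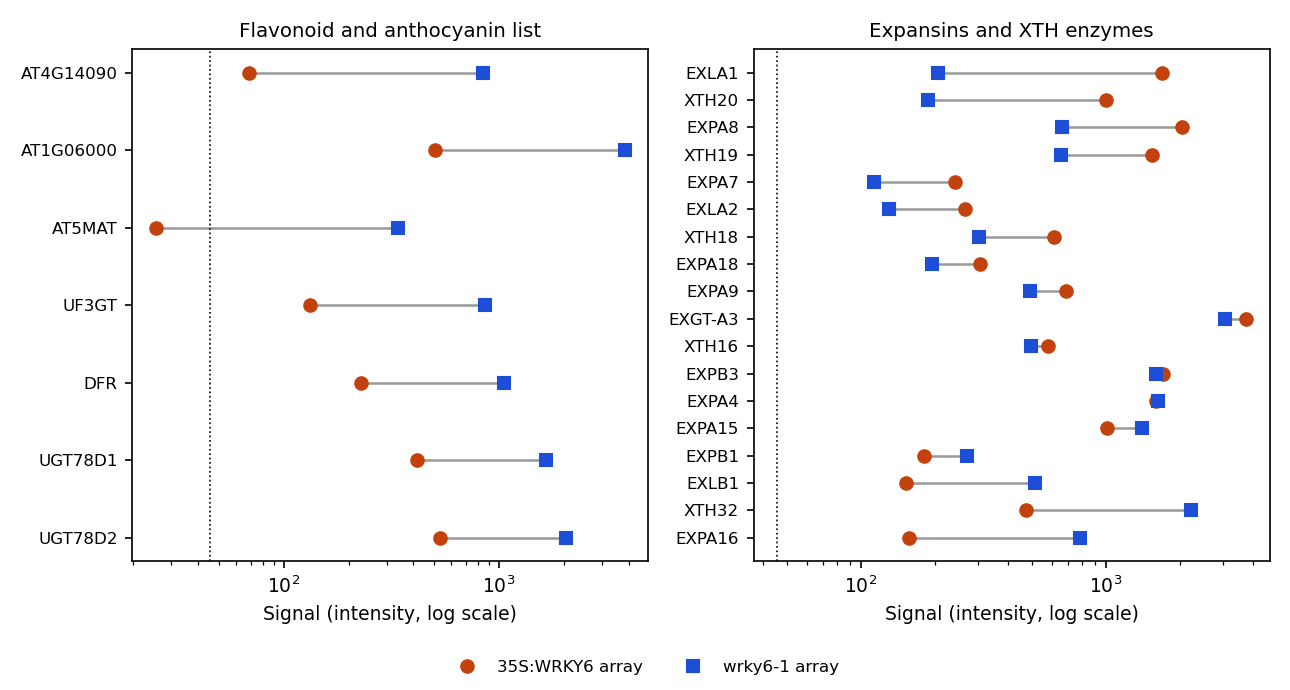
Signals (intensity, log scale) on the 35S:WRKY6 array (orange circles) and the wrky6-1 array (blue squares) for the 7 measured flavonoid and anthocyanin genes and the 18 measured expansin and XTH genes, with the floor of 45.5 dotted. All 7 flavonoid genes have the blue square to the right, and the wall genes run from EXLA1 (1702 and 206.5) to EXPA16 (156.5 and 786.6).

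The membrane transporters found by name (sugar, peptide, nitrate and ion carriers) held 20 measured genes, with a median of -0.62. Of these 6 were lower (30%, against 4.34% of all genes). The count of 0 higher is near the 4.26% over all genes in a group of this size. SAG29, a sugar carrier of the SWEET family whose transcript marks senescing leaves, had 264 against 883.4 (-1.74), and was the single measured gene of 21 on the senescence list. AT1G59740, listed as NPF4.3 of the nitrate and peptide transporter family, had 150.3 against 470.4 (-1.65). SWEET1 (-1.33), SWEET13 (-1.17), AT1G68570 (NPF3.1, -1.14) and CHX20, a cation exchanger of guard cells (-1.06), were the others lower, and these 4 lie outside the naming rule. Of the 6 lower genes, AT1G59740, SWEET13 and CHX20 passed the filter on the wrky6-1 array alone, and the others had both signals above it. The highest of the measured SWEET genes, SWEET16, had a log2 ratio of 0.30. Carriers whose names do not say so in the annotation used are not in this count.

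Glucosinolates are sulphur-containing defence compounds of the cabbage order. Probe sets assigned to a single gene covered only 5 of the 34 listed genes, so most of the pathway is not seen here. All 5 were measured and had lower signal in 35S:WRKY6, with a median of -0.80. By 2-fold 2 of them were lower, against 4.34% of all genes. BCAT4, which starts the chain elongation of methionine, had 1312 against 2712 (-1.05), and the listed locus AT2G31790 had 745.5 against 1614 (-1.11). The glucosinolate transporters GTR2 and GTR1, also counted among the carriers above, had -0.80 and -0.64, and the glucosyltransferase UGT74B1 had -0.41. All 5 were above the filter on both arrays.

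The autophagy list held ATG8 genes alone. ATG8 proteins are the ubiquitin-like tags of the autophagosome membrane. All 9 listed genes were measured, and 8 had a log2 ratio above 0. Of the 9, 2 were higher, against 4.26% of all genes, and 0 were lower. A count of 0 is near the 4.34% over all genes in a group of this size. ATG8F had 4100 in 35S:WRKY6 and 1554 in wrky6-1 (1.40), and ATG8E had 821.2 against 374 (1.13). The remaining 7 ranged from ATG8H at 0.84 to ATG8B at -0.13, and these fall short of 2-fold. In the list of energy starvation and leucine breakdown, 2 of 8 measured genes were higher, against 4.26% of all genes. AKINBETA1, a subunit of the SnRK1 energy-sensing kinase, had 1123 against 377.6 (1.57), and the leucine catabolic enzyme IVD had 877.8 against 410.3 (1.1). The companion enzymes MCCA and MCCB had 0.47 and 0.43, and the list median was 0.34.

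Ubiquitin pathway genes had 4 higher and 4 lower among 34 measured (11.8% each, against 4.26% and 4.34% of all genes). Their median was 0.19. All 4 lower genes passed the filter on the wrky6-1 array alone, as PUB22 and PUB24 did on the 35S:WRKY6 array, so the filter had a part in this split. The plant U-box ligases stood on both sides. PUB19 had 1435 against 422.7 (1.76) and PUB22, which dampens immune signalling, had 408 against 153 (1.41). PUB26 had 90.09 against 232.7 (-1.37), and the ligase RING1 had 130.8 against 451.1 (-1.79). Outside the naming rule, PUB24, a close partner of PUB22, had 1.14, and PUB25, the closest relative of PUB26, had -1.33.

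Defence-related classes held genes past 2-fold in both directions. Among defensins, thionins and chitinases found by name, 2 of 9 were higher (22.2%, against 4.26% of all genes) and 1 lower (11.1%, against 4.34%). Their median was 0.77. Members of these families that the annotation used does not name as such were not counted, so the direction of the families as wholes is not given here. The defensin PDF1.4 had 417.6 against 105.6 (1.98) and the chitinase ChiC had 1245 against 527.9 (1.24), while the thionin THI2.2 had 301.9 against 911.9 (-1.59). PDF1.2b, a marker of jasmonate and ethylene signalling measured with a probe set that can bind relatives, had 269.1 against 158 (0.77). Beta-glucosidases, which release toxins and hormones from sugar conjugates, had 2 higher and 1 lower of 11, both larger shares than over all genes: BGLU19 was at least 6.95-fold higher (316.2 in 35S:WRKY6), BGLU28 had 1.21 and BGLU40 had -1.28. No gene of the salicylate list was measured, and 1 of 32 was measured on the jasmonate list, so these hormones can hardly be read here.

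Transcription factors were grouped by the family given in their names, which found 5 WRKY, 5 bHLH, 11 bZIP and 0 MYB genes measured, and factors named otherwise were not counted. WRKY22, a factor of the immune response to flagellin, had 407.6 in 35S:WRKY6 and 77.38 in wrky6-1 (2.40). WRKY47 was under the floor in the overexpressor and 354.9 in the knockout, at least 7.80-fold lower, while ZAP1 (WRKY1) and WRKY20 had -0.25 and 0.01. The bHLH factors bHLH121 and bHLH115, both regulators of iron uptake, had 462 against 200.6 (1.2) and 382.1 against 818.1 (-1.1). None of the 11 bZIP factors differed 2-fold, and their median was 0.33.

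Cold and dehydration genes differed in opposite directions. COR15A, which protects chloroplasts during freezing, had 260.7 against 2081 (-3.0), and its neighbour COR15B had 452.6 against 928.6 (-1.04). COR27, a cold gene also tied to light and the clock, had 294.1 against 64.15 (2.20), and LEA18 was at least 5.28-fold higher, at 240.2 in 35S:WRKY6. The list of 9 thus held 2 higher and 2 lower, with a median of -0.17, and with a stricter filter (on both arrays, on the mean signal or at the 70th percentile) the 2 higher became 0. Adding 50 to the signals in place of the floor left 1 lower. The bright dehydrins COR47 and LTI30 had 0.30 and -0.31. The clock gene GI had 329.9 against 671.5 (-1.03) and was not counted with 50 added.

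**Figure D5:**
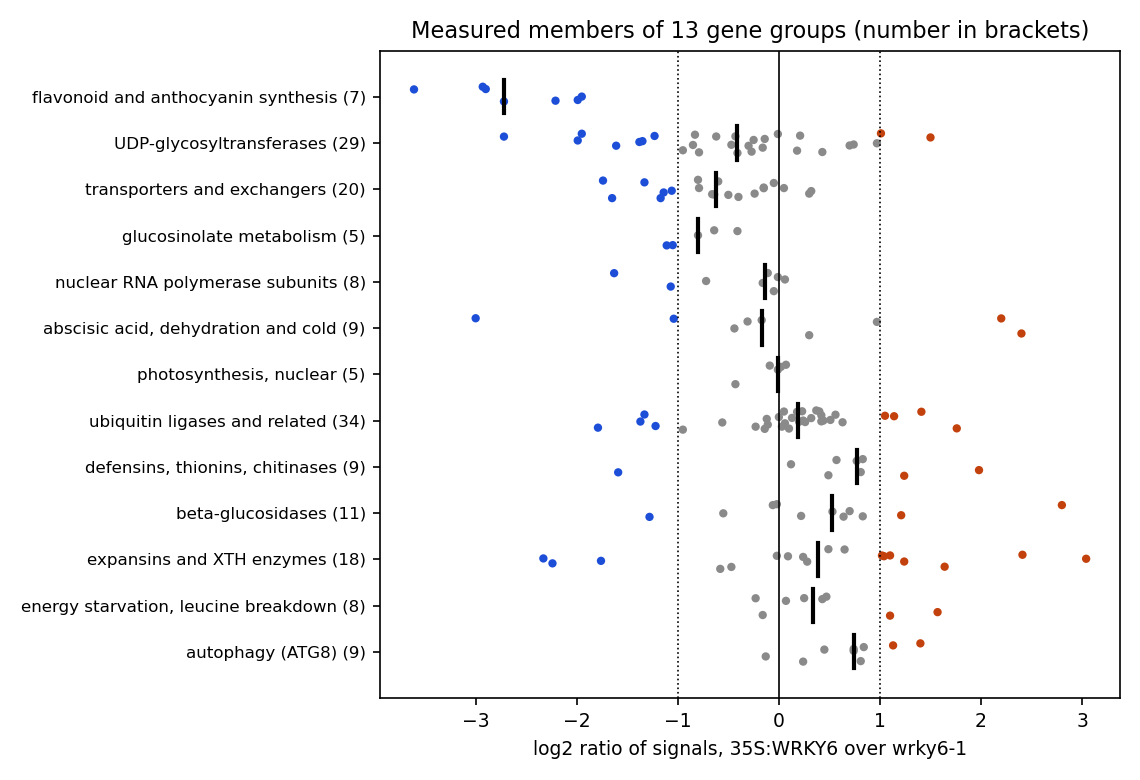
Log2 ratios of signal, 35S:WRKY6 over wrky6-1, for every measured member of 13 gene groups; the number in brackets is the number measured, the black bar is the group's median, dotted lines mark 2-fold, and orange and blue points lie past it. Flavonoid genes (median -2.72) lie wholly to the left, ATG8 genes (median 0.74) mostly to the right, and wall and ubiquitin genes on both sides.

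Several functions rested on 1 or 2 genes among those found by list or by name. Members that the annotation used does not name as such are outside these counts. RR16, a cytokinin response regulator, had 459 against 143.2 (1.68), and isocitrate lyase, ICL, of the glyoxylate cycle had 358.8 against 124.7 (1.52). The peroxidase AT5G64120 (PRX71), the 1 past 2-fold of 4 measured peroxidases found by name, had 3183 against 1023 (1.64). The glutathione transferase GSTU16 had 211.1 against 710.3 (-1.75). CYP71B26 was the 1 of 6 measured cytochromes P450 past 2-fold, at 387.2 against 886.9 (-1.2). Among peptides of the RALF family, which signal cell growth and wall state, RALFL33 had 4074 against 1936 (1.07) and RALFL22 had 2242 against 1094 (1.04), 2 of 6 measured.

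RNA polymerase I makes ribosomal RNA, and its largest subunits were both lower in 35S:WRKY6. NRPA1 had 157.2 against 486.7 (-1.63) and NRPA2 had 487.3 against 1023 (-1.07). The other 6 measured nuclear polymerase subunits, from NRPB7 (-0.72) to NRPB12 (0.06), fell short of 2-fold. The control probe set for 25S ribosomal RNA had 152.4 on the 35S:WRKY6 array and 65.21 on the wrky6-1 array. Both signals were under the filter of 174.6, so it would not count as measured, and its part in this result was not tested.

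Functions known for WRKY6 elsewhere were thinly covered. On the phosphate list 1 of 32 genes was measured, AT1G63010, with 1140 against 1421 (-0.32). Of the 10 genes on the PHO1-like list 2 were measured: AT1G35350 had 0.33 and AT2G03240 had -0.95. The ethylene factor EIN3 had 2297 against 1781 (0.37), and the iron regulator PYE had 267.9 against 266.8 (0.01). On the auxin list 0 of 4 differed 2-fold, with the auxin-conjugating enzymes GH3.3 at 0.64 and WES1 at -0.85. The loci of the heat-shock list, AT2G29500 (0.95) and AT5G48570 (0.70), also fell short. The lists for gibberellin and brassinosteroid, nitrate and ammonium, and cell division had 0 measured genes.

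Some groups had no gene past 2-fold. Photosynthesis genes of the nucleus had 0 of 5 past 2-fold, with LHCB4.1 at 18551 against 19766 (-0.09) and LHCB4.3 at 1345 against 1812 (-0.43). Genes encoded in the plastid had 0 of 63 past 2-fold, ranging from -0.95 to 0.88 with a median of -0.07. Histones had 0 of 6, and ribosomal proteins, mostly plastid genes already among the 63, had 0 of 15. Beside background shares of 4.26% and 4.34%, a count of 0 in the smaller groups is near the background.

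Some neighbouring genes were past 2-fold together. Of 1622 pairs of adjacent measured genes in the TAIR10.1 order, 18 pairs (1.11%) had both genes past 2-fold, 14 of them in the same direction. Over all genes 4.26% were higher and 4.34% lower. Whether 18 pairs are more than unrelated genes with these shares would give was not tested. Besides COR15B with COR15A and XTH18 with XTH19, AT1G67860 stood beside AT1G67865, which was at least 6.04-fold lower, and EXPA16 beside RBL (-1.36). AT1G62290 and WRKY6 were 1 of the 4 pairs with opposite directions.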

How the data were processed

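RNA of whole seedlings was hybridised to 1 Affymetrix array per genotype. The deposited values are intensities on a linear scale for 22810 probe sets, made with GCOS 1.0 and MAS5 per the submitters' processing notes; the genome build is not given in the sources used here. The 64 control probe sets were left out. The floor (45.5) and the filter (174.6) are the 30th and the 50th percentiles of the signals of all 3 arrays pooled. Log2 ratios were taken as 35S:WRKY6 over wrky6-1 with Python 3.11.15, numpy 2.4.6 and pandas 2.3.3, with no further scaling, and the calculation was tested on simulated data. Array number limits the precision, and no p-value could be computed.

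Gene names came from the platform annotation and RefSeq (TAIR10.1): 13513 probe sets had 1 gene, 503 several and 8730 none, and 13436 matched RefSeq. Of the probe sets past 2-fold, 261 higher and 281 lower were unnamed and 17 and 8 had several genes. The brightest single-gene probe set stood for a gene. Named were WRKY6, the 15 highest and lowest genes above the floor, the 10 brightest per direction with the other array under it, list members past 2-fold (up to 8, or else the 2 furthest from 0), and the 2 highest and 2 lowest past 2-fold of each name class; other genes were named after their values were seen. Members and lists were chosen with earlier results of these data known, and the search patterns of the name classes were corrected after values were seen. Alternatives were quantile, median and lowess scaling, other floors, an added constant and other filters.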

Additional observations from a re-analysis of the deposited data

How the results depend on the processing

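WRKY6 was far higher in 35S:WRKY6 under 9 of the 10 alternatives and had no value under the other, which required both arrays to pass the filter. Its log2 ratio follows the floor: 7.67 became 8.87 with a floor at the 20th percentile, 6.58 at the 40th and 7.22 with 50 added in place of a floor. The 543 higher and 558 lower probe sets became 334 and 326 with a filter at the 70th percentile, and 311 and 296 where both arrays had to pass it, and adding 50 gave 382 and 391. All probe sets left under these 3 alternatives were among those counted as reported. Without a filter 677 and 725 were counted. Scaling moved the balance little: quantile normalization gave 564 and 540, median centring 554 and 543, and lowess 592 and 508, which shares 539 and 504 probe sets with the counts as reported. No named gene past 2-fold changed direction. Of the 87 other named genes past 2-fold, 83 remained so with 50 added, 86 with the floor at the 40th percentile and all 87 under the 3 scalings, while requiring both arrays to pass the filter left 38. The 7 flavonoid genes became 4 under that filter, and the 2 higher cold genes became 0 there, with the filter at the 70th percentile and with the filter on the mean. With 50 added, the 2 lower cold genes became 1 and the 1 lower clock gene became 0. The 1 higher gene of the root list, EXPA7, became 0 with 50 added and under the same 3 filters as the higher cold genes. No paired analysis was possible because each genotype has 1 array. For the same reason no replicate could be left out.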

Other observations

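Further named genes past 2-fold were picked out after their values were seen, and they touch growth signalling, calcium and membranes. SRC2, a membrane protein with a calcium-binding C2 domain, had 10772 in 35S:WRKY6 and 3162 in wrky6-1 (log2 ratio 1.77). EXO, a brassinosteroid-responsive gene of cell expansion, had 3364 against 1037 (1.70), the calmodulin-like gene CML38 had 179.9 against 60.92 (1.56), and PSY1R, a receptor of a growth peptide, had 378.3 against 179.6 (1.07). On the low side, LPR1, an oxidase of the root response to low phosphate, had 49.23 against 242.2 (-2.30), and the cytosolic chaperone Hsp70-2 had 467.8 against 1413 (-1.60). The IQD family, calmodulin-binding scaffold proteins, had IQD24 at -1.99 and IQD22 at -1.47, 2 lower of 8 measured.

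Some families sharing a symbol had most ratios on one side of 0. All 6 measured TRM genes lay below 0, with 1 lower and a median of -0.35. Of the 7 measured genes with a SWEET symbol, which leaves out SAG29, 1 lay above 0 and 2 were lower. Of the 9 measured VPS genes, which sort proteins to the vacuole, 7 lay above 0 with a median of 0.45 and 0 past 2-fold. These are counts over single arrays with no test.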
